A study of Mus musculus with 8 samples.

Results

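Insulin acts through a receptor tyrosine kinase that phosphorylates docking proteins, the insulin receptor substrates. These recruit phosphoinositide 3-kinase, whose lipid product activates the kinase AKT. AKT keeps FOXO transcription factors out of the nucleus and, in fat and muscle, drives the glucose transporter GLUT4 to the cell surface. In mesenchymal progenitors insulin is also a standard part of media that induce adipocytes. The 9 genes described here follow this chain from the surface inwards: *Insr* (the insulin receptor), *Irs1* and *Irs2* (the substrates), *Pik3r1* (the p85-alpha regulatory subunit of phosphoinositide 3-kinase), *Akt1* and *Akt2*, *Foxo1* and *Foxo3*, and *Slc2a4* (GLUT4). They were taken by name as the insulin chain, and all 9 were found among the 31053 genes of the count tables.

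The genes were measured in fibro/adipogenic progenitors (FAPs), the mesenchymal cells of muscle that give rise to fat and scar tissue. The cells came from hind limb muscles of *mdx* mice (C57BL/10ScSn-Dmdmdx/J), which lack dystrophin, at an age of 45 days, so every sample is dystrophic and none is wild type. Cells without the leucocyte, endothelial and satellite cell surface markers were sorted for high or low SCA-1 protein, giving SCA1-High-FAPs and SCA1-Low-FAPs with 4 samples each, and each cell state was grown for 5 days in growth medium (GM) with 20% serum. No insulin was listed as an addition to GM, and only mRNA was measured, not the phosphorylation of these proteins. The libraries held 1880561 to 3985656 reads counted on genes. At that depth 3 counts corresponded to 0.792 to 1.63 CPM (counts normalised for library size, the linear scale of all levels below).

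The mRNA of *Ly6a*, which encodes SCA-1, did not follow the names of the groups. It stood at 492, 789, 645 and 919 CPM in SCA1-High-FAPs 1 to 4 and at 1100, 1080, 1156 and 1014 CPM in SCA1-Low-FAPs 1 to 4. It was thus higher in the libraries labelled SCA1-Low (log2 fold change 0.61 ± 0.17 SE, edgeR adjusted p = 0.0341). The names refer to the surface protein at the sort, before culture. The FAP marker *Pdgfra* was present in every library, at 157 to 291 CPM, whereas 6 of 7 myogenic markers were at 0 counts in all 8 libraries. The 7 FAP markers, *Pdgfra* and *Ly6a* among them, did not go 1 way between the states. By the thresholds given below, 1 was called higher in SCA1-High-FAPs and 2 higher in SCA1-Low-FAPs. Their summed level was 7973 to 10696 CPM in SCA1-High-FAPs and 6948 to 10246 CPM in SCA1-Low-FAPs.

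*Insr*, *Irs1*, *Irs2* and *Pik3r1*, the genes at the upper end of the chain, were all higher in SCA1-High-FAPs, by 2.74-, 2.36-, 1.89- and 2.13-fold. The genes further down, *Akt1*, *Akt2*, *Foxo1* and *Foxo3*, did not pass the test. A gene was called when edgeR gave an adjusted p under 0.05 and a log2 fold change over 0.5 in size. Of the 9 genes 8 had enough counts to be tested, 4 were called higher in SCA1-High-FAPs and 0 higher in SCA1-Low-FAPs, where 4.36% and 3.32% of all 10181 tested genes were called in these directions. In the second direction 1 gene, *Akt1*, had an unadjusted p under 0.05, and DESeq2 gave 0 calls as well. Without SCA1-Low-FAPs 2 the count of 4 fell to 2 (*Irs2* and *Pik3r1*). It stayed at 4 without SCA1-High-FAPs 2 or SCA1-Low-FAPs 3 and was 3 when any other single library was left out. Without SCA1-Low-FAPs 1 the 3 were *Irs2*, *Pik3r1* and *Slc2a4*. Fold changes on the log2 scale divide the SCA1-Low level by the SCA1-High level, and negative values mean a higher level in SCA1-High-FAPs. Their median was -0.74 over the 8 tested genes and 0.00029 over all tested genes. In bulk samples, fewer cells expressing a gene and less RNA per cell cannot be told apart.

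**Figure D1:**
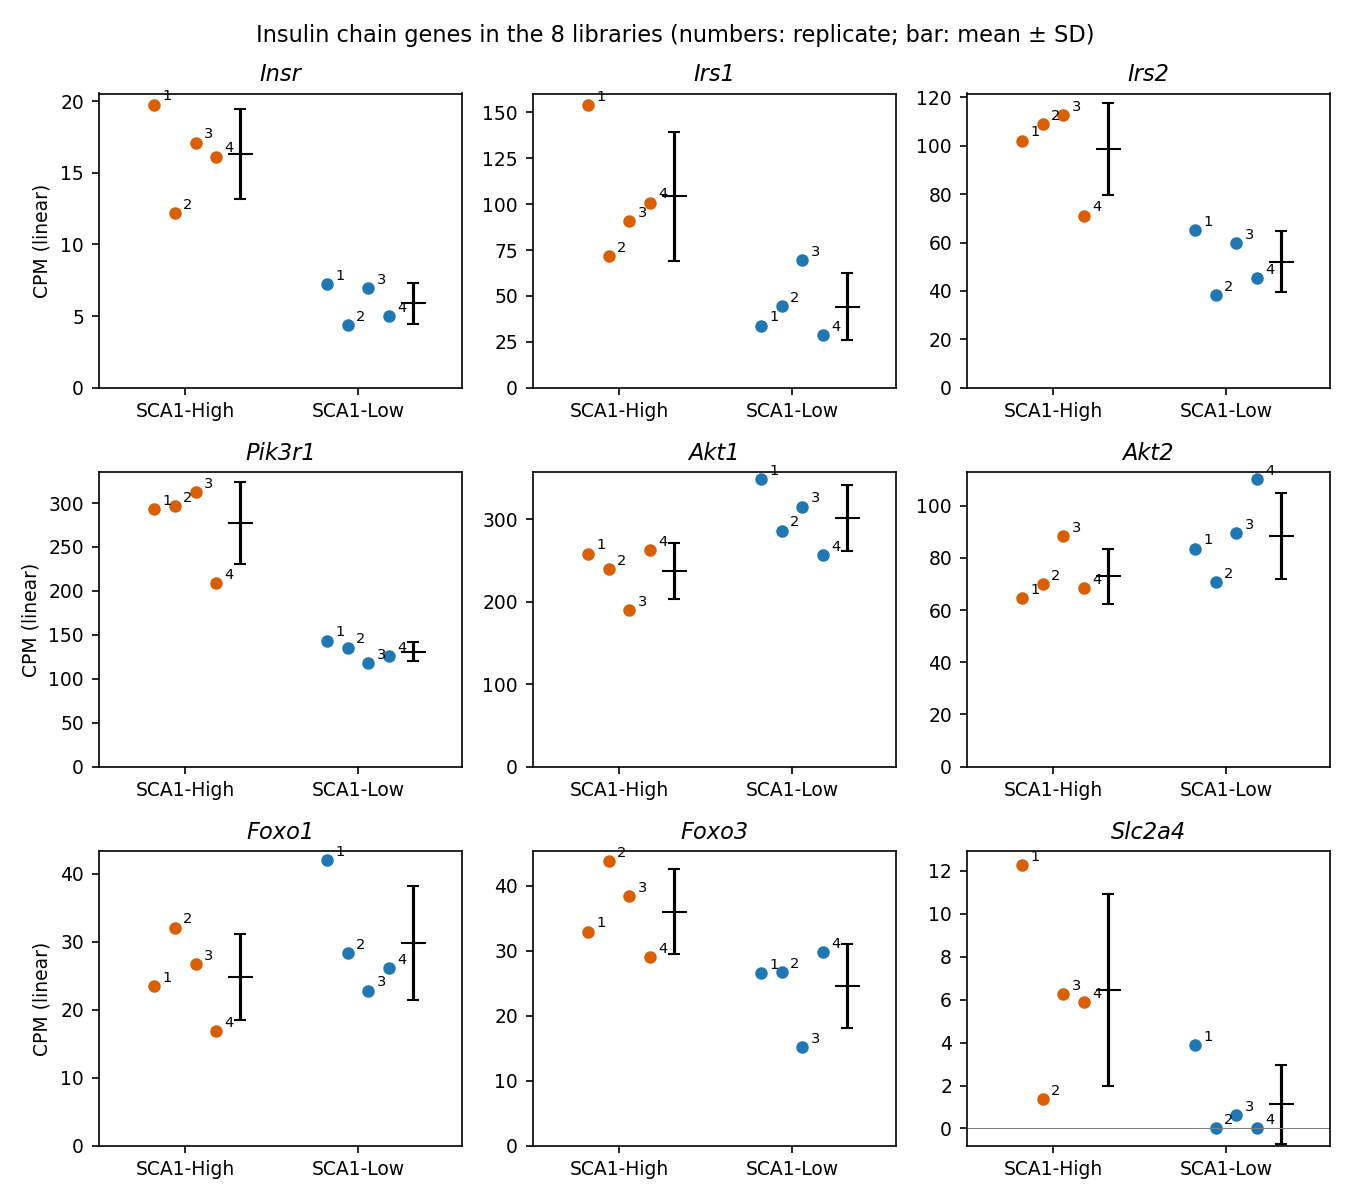
CPM (counts normalised for library size, linear axis) of the 9 insulin chain genes in each of the 4 SCA1-High-FAP (orange) and 4 SCA1-Low-FAP (blue) libraries, with the replicate number beside each point and the mean ± SD as a bar. The groups do not overlap for Insr, Irs1, Irs2 and Pik3r1, and they overlap for the other 5 genes. Among the 101 tested genes of the other pathway lists, 17 had groups that did not overlap. The share over all tested genes was not counted.

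The start sites of the genes that moved together are shown because their sequences can be set beside each other. The 250 bases before the start of *Irs1*, *Irs2* and the first of 2 start sites of *Pik3r1* are printed 5′ to 3′ on the strand of the gene, from RefSeq on GRCm38.p6: *Irs1* chr1:82291440-82291689, *Irs2* chr8:11008930-11009179 and *Pik3r1* chr13:101768218-101768467, all on the minus strand. Capitals mark, on either strand, the E-box CACGTG, the insulin response motif TGTTTTG, a core that FOXO factors can bind, the GC box GGGCGG and the CCAAT box.
Irs1: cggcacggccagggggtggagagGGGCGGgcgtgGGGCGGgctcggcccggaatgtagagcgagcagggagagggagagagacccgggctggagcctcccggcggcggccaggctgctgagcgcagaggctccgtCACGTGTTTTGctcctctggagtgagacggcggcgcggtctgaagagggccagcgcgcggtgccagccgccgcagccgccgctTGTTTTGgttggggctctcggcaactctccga
Irs2: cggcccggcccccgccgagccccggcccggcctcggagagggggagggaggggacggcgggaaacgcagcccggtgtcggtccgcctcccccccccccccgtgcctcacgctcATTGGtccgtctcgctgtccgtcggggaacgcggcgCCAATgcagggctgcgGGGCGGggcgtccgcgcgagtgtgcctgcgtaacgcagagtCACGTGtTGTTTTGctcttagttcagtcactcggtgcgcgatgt
Pik3r1: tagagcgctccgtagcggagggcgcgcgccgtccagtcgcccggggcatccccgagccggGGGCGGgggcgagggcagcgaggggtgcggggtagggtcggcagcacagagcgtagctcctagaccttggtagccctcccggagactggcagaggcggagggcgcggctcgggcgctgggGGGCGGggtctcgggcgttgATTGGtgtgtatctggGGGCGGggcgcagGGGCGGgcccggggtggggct
*Irs1* and *Irs2* each hold 1 E-box with a TGTTTTG beside it towards the gene. In *Irs1* the last letters TG of the E-box are the first of that motif, and in *Irs2* a single t lies between them. *Irs1* has a further TGTTTTG closer to its start, and the *Pik3r1* window has neither motif but 4 GC boxes. Among 32851 promoter windows of the same length, 6.02% held an E-box, 5.56% TGTTTTG, 32.7% a GC box and 33.8% a CCAAT box. TGTTTTG was added to the search after these sequences had been seen. The FOXO motif TGTTTAC, the C/EBP motif TTGCGCAA and the DR1 repeat bound by PPAR factors were also searched, are held by 3.17%, 0.164% and 0.0335% of all windows, and have no match in these 3. These are matches of letters only, and binding was not measured. GC boxes were also found before genes that were not called. *Foxo3* had 5, *Foxo1* 2, the windows of *Akt1* 0 and 4 and those of *Akt2* 0 or 1. The second start site of *Pik3r1* had 0, and which site these cells use was not measured. Also before genes not called, 1 window of *Akt1* held the FOXO motif and that of *Foxo1* held 3 CCAAT boxes. No window was available for *Insr* or *Slc2a4*.

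*Insr* (ENSMUSG00000005534, chr8:3122061-3279617, minus strand, GRCm38) was the receptor of the chain and its least counted tested gene. Its level was 19.8, 12.2, 17.1 and 16.1 CPM in SCA1-High-FAPs 1 to 4 and 7.25, 4.36, 6.98 and 5.02 CPM in SCA1-Low-FAPs 1 to 4. Every SCA1-High library lay above every SCA1-Low library. The means were 16.3 ± 3.14 and 5.9 ± 1.43 CPM (SD, n = 4 each), a log2 fold change of -1.46 ± 0.39 (SE, edgeR adjusted p = 0.0291). These levels rest on few reads, 154 counts over the SCA1-High libraries and 64 over the SCA1-Low libraries. The call was kept in 2 of 8 fits that each left out a library, with edgeR adjusted p from 0.0324 to 0.0987, and was lost without SCA1-High-FAPs 1, 3 or 4 or SCA1-Low-FAPs 1, 2 or 4. The direction was the same in all 8 of these fits, with log2 fold changes from -1.56 to -1.35.

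The related receptor gene *Igf1r*, which binds insulin-like growth factors and at high dose insulin, was not called. Its level ran from 133 to 214 CPM in SCA1-High-FAPs and from 153 to 207 CPM in SCA1-Low-FAPs, with a log2 fold change of 0.11 (± 0.17 SE, edgeR adjusted p = 0.787). Within each library, the ratio of *Insr* to *Igf1r* counts was 0.0933, 0.0931, 0.106 and 0.103 in SCA1-High-FAPs 1 to 4 and 0.0361, 0.0302, 0.0364 and 0.0314 in SCA1-Low-FAPs 1 to 4, with 0.5 added to each count. The ratio varied little inside a cell state and did not overlap between them. It was chosen after the values had been seen and is given with no test.

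*Irs1* (ENSMUSG00000055980, chr1:82233101-82291416, minus strand) encodes the substrate prominent in insulin action in fat and muscle. It stood at 154, 71.9, 91 and 101 CPM in SCA1-High-FAPs 1 to 4 and at 33.8, 44.6, 69.5 and 28.8 CPM in SCA1-Low-FAPs 1 to 4. The groups only just separated, since SCA1-High-FAPs 2 and SCA1-Low-FAPs 3 were nearly level. The means were 104 ± 35.1 and 44.2 ± 18.1 CPM (SD, n = 4 each), a log2 fold change of -1.24 ± 0.28 (SE, edgeR adjusted p = 0.014). The call was lost without SCA1-Low-FAPs 1 (edgeR adjusted p = 0.0604) or SCA1-Low-FAPs 2 (edgeR adjusted p = 0.0515). Without SCA1-Low-FAPs 3, the highest of its group, the log2 fold change was -1.57 (edgeR adjusted p = 0.00102).

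*Irs2* (ENSMUSG00000038894, chr8:10984681-11008458, minus strand) encodes the second widely expressed substrate. Its level was 102, 109, 113 and 71.1 CPM in SCA1-High-FAPs 1 to 4 and 65.3, 38.1, 59.9 and 45.1 CPM in SCA1-Low-FAPs 1 to 4. SCA1-High-FAPs 4 came close to the SCA1-Low libraries and the other 3 lay well above them. The means were 98.7 ± 18.9 and 52.1 ± 12.6 CPM (SD, n = 4 each), a log2 fold change of -0.92 ± 0.21 (SE, edgeR adjusted p = 0.0128). *Irs2* was called in all 8 fits that left out a library. The log2 ratio of *Irs1* to *Irs2* differed by -0.33 between the cell states (exact permutation test, two-sided, p = 0.457, adjusted over 4 ratios 0.6), but libraries of a state ranged from 0.66 to 1.51 in SCA1-High-FAPs and from 0.52 to 1.17 in SCA1-Low-FAPs, so that a moderate difference could not have been seen.

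*Pik3r1* (ENSMUSG00000041417, chr13:101680563-101768217, minus strand) had the lowest adjusted p of the chain. It stood at 293, 296, 313 and 209 CPM in SCA1-High-FAPs 1 to 4 and at 144, 136, 118 and 126 CPM in SCA1-Low-FAPs 1 to 4. Even SCA1-High-FAPs 4, the lowest of its group, was above every SCA1-Low library. The means were 278 ± 46.6 and 131 ± 11.1 CPM (SD, n = 4 each), a log2 fold change of -1.09 ± 0.16 (SE, edgeR adjusted p = 0.000672). It was called in all 8 fits that left out a library, with log2 fold changes from -1.20 to -1.03, and it was the one gene of the chain that passed an adjusted p of 0.01.

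**Figure D2:**
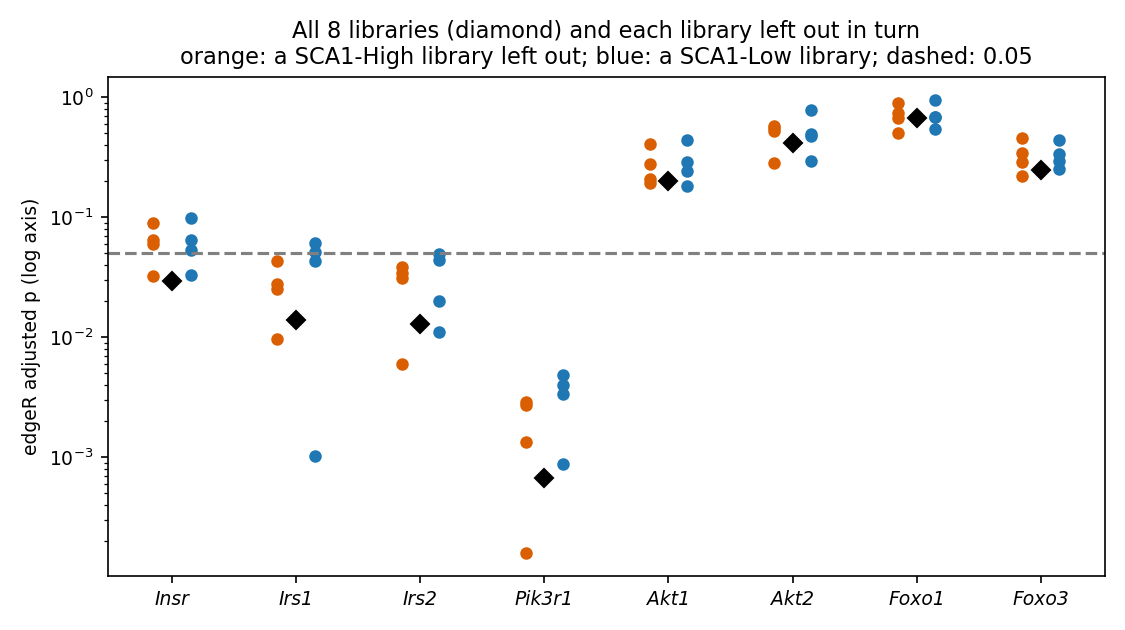
edgeR adjusted p (log axis) of the 8 tested insulin chain genes with all libraries (black diamond) and with each library left out in turn (orange, a SCA1-High library; blue, a SCA1-Low library). Pik3r1 and Irs2 stay under the dashed line at 0.05 in all 8 fits, Irs1 in 6 and Insr in 2, and the other 4 genes lie above it throughout.

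The AKT kinases carry the signal on, *Akt1* mainly in growth and survival and *Akt2* mainly in glucose handling. *Akt1* (ENSMUSG00000001729, chr12:112653821-112674884, minus strand) stood at 258, 240, 190 and 263 CPM in SCA1-High-FAPs 1 to 4 and at 349, 286, 316 and 256 CPM in SCA1-Low-FAPs 1 to 4. SCA1-Low-FAPs 4 lay inside the range of the other group. The log2 fold change was 0.34 with a 95% interval from 0.02 to 0.67 (edgeR adjusted p = 0.2), opposite in sign to the genes above it in the chain. *Akt2* (ENSMUSG00000004056, chr7:27591552-27640826, plus strand) ran from 64.5 to 88.5 CPM in SCA1-High-FAPs and from 70.8 to 110 CPM in SCA1-Low-FAPs. Its log2 fold change was 0.28 with a 95% interval from -0.11 to 0.68 (edgeR adjusted p = 0.418). For both, the interval leaves out a fall of the size seen for *Pik3r1*. The log2 ratio of *Akt1* to *Akt2* differed by 0.08 between the states (exact permutation test, two-sided, p = 0.6, adjusted p = 0.6) and turned negative when SCA1-High-FAPs 3 (-0.13), SCA1-Low-FAPs 1 (-0.02) or SCA1-Low-FAPs 2 (-0.0033) was left out.

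FOXO factors are held in check by AKT and activate genes of fasting and cell cycle arrest. *Foxo1* (ENSMUSG00000044167, chr3:52268336-52353221, plus strand) stood at 23.5, 32.1, 26.7 and 16.9 CPM in SCA1-High-FAPs 1 to 4 and at 42.1, 28.3, 22.8 and 26.1 CPM in SCA1-Low-FAPs 1 to 4, with groups that overlapped (log2 fold change 0.26 ± 0.28 SE, edgeR adjusted p = 0.663). *Foxo3* (ENSMUSG00000048756, chr10:42181841-42276755, minus strand) stood at 33, 43.9, 38.4 and 29 CPM in SCA1-High-FAPs 1 to 4 and at 26.6, 26.7, 15.2 and 29.8 CPM in SCA1-Low-FAPs 1 to 4. Its groups overlapped only through SCA1-High-FAPs 4 and SCA1-Low-FAPs 4 (log2 fold change -0.55 ± 0.27 SE, 95% interval -1.12 to 0.01, edgeR adjusted p = 0.246). Neither was called. The ratio of *Foxo1* to *Foxo3* within a library was 0.72, 0.73, 0.70 and 0.58 in SCA1-High-FAPs 1 to 4 and 1.58, 1.06, 1.49 and 0.88 in SCA1-Low-FAPs 1 to 4, without overlap. The log2 ratio was higher by 0.84 in SCA1-Low-FAPs. A two-sided exact permutation test gave p = 0.0286, the smallest p that 4 against 4 allows. After adjustment over the 4 ratios it was 0.114, so it did not pass. No single ratio could have passed this adjustment on its own, so the test could not decide.

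*Slc2a4* (ENSMUSG00000018566, chr11:69942539-69948188, minus strand), the insulin-responsive glucose transporter, was near the limit of detection. It had 26, 3, 15 and 16 counts in SCA1-High-FAPs 1 to 4 and 8, 0, 2 and 0 counts in SCA1-Low-FAPs 1 to 4. The sums were 60 and 10 counts, and SCA1-Low-FAPs 1 lay above SCA1-High-FAPs 2. The gene did not pass the filter on low counts, and without that filter its log2 fold change was -2.55 (edgeR adjusted p = 0.0777). With SCA1-Low-FAPs 1 left out, *Slc2a4* entered the test and was called (log2 fold change -4.55, edgeR adjusted p = 0.038), a value that rests on 2 counts in the remaining SCA1-Low libraries. *Slc2a1*, the basal transporter GLUT1, was not called, at 18 to 33 CPM in SCA1-High-FAPs and 28 to 35.3 CPM in SCA1-Low-FAPs, with a log2 fold change of 0.12 (± 0.26 SE, edgeR adjusted p = 0.854). The log2 ratio of *Slc2a4* to *Slc2a1* differed by -3.33 between SCA1-Low-FAPs and SCA1-High-FAPs (exact permutation test, two-sided, p = 0.0571, adjusted p = 0.114). With 2 in place of 0.5 added to each count the difference was -2.31, since 2 SCA1-Low libraries had 0 counts.

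The 3 genes *Insr*, *Irs1* and *Foxo1* overlap another counted gene on the opposite strand, and the strand setting of the counting is not given in the sources used here. The end of *Irs1*, where a 3′ library reads, lies almost whole in its overlap with *Gm9747*, which had 0 to 2 counts per library. *Gm16180*, within *Insr*, and *Gm20402*, at the start of *Foxo1*, had 0 counts in all 8.

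**Figure D3:**
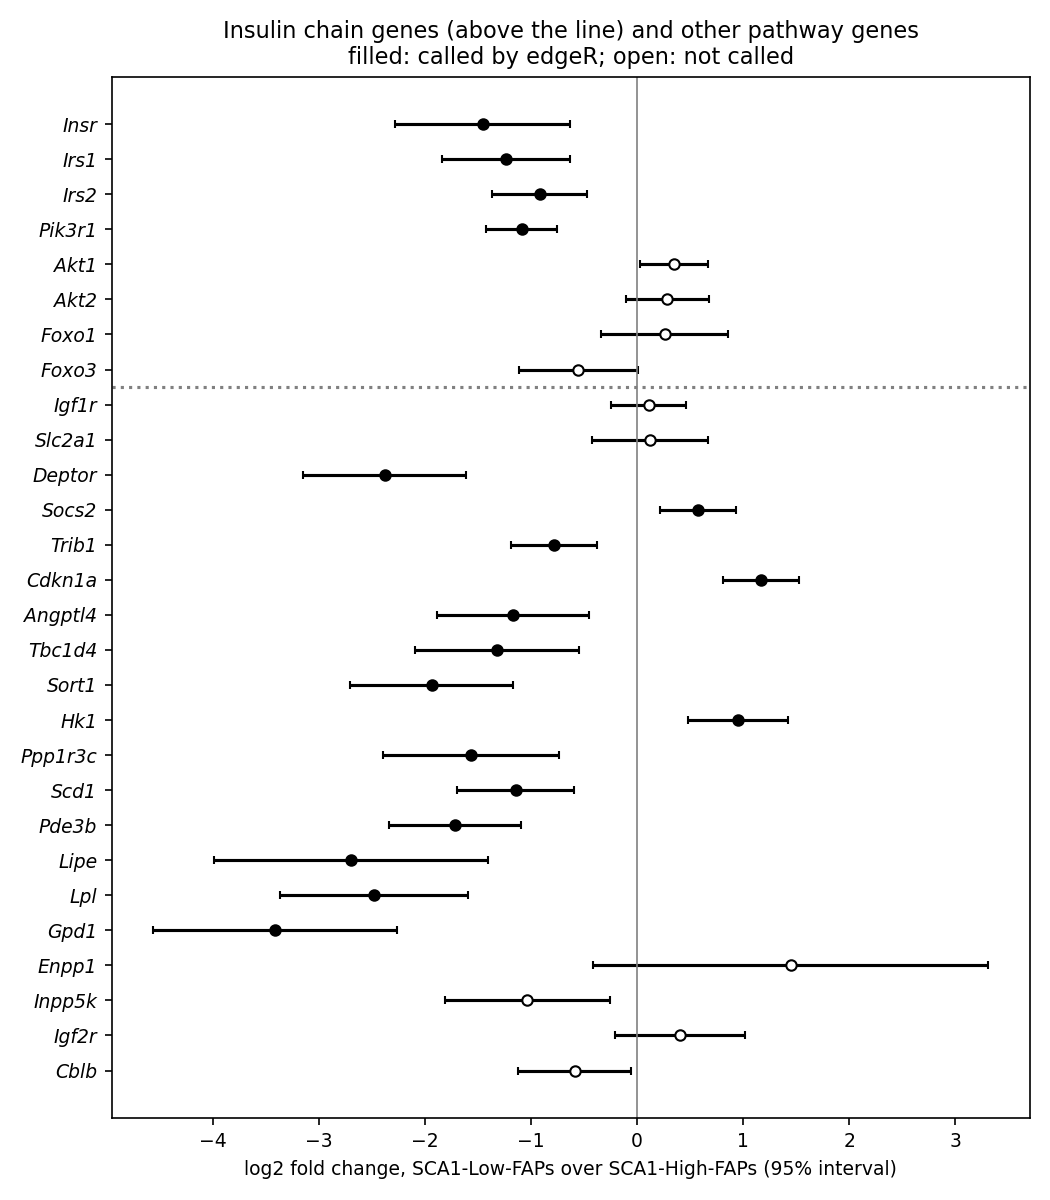
log2 fold change (SCA1-Low-FAPs over SCA1-High-FAPs) with its 95% interval for the 8 tested insulin chain genes, above the dotted line, and the named genes of the other pathway lists, below it. Filled points were called by edgeR and open points were not: Insr, Irs1, Irs2 and Pik3r1 lie to the left of 0, while Akt1, Akt2, Foxo1 and Foxo3 are open.

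The rest of the pathway was followed in 8 lists of 115 genes in all, of which 101 were tested. Of these, 11 were called higher in SCA1-High-FAPs and 3 higher in SCA1-Low-FAPs, where the shares over all tested genes were 4.36% and 3.32%. The median log2 fold change was -0.16. The genes closest to the 9 are the other receptors, the other substrates and adaptors, and the other phosphoinositide 3-kinase and lipid phosphatase genes. In the main edgeR fit (all libraries, with the filter) these lists gave 0 calls in either direction among 2, 12 and 9 tested. An unadjusted p under 0.05 was reached by 0, 2 and 2. Lists this short would hold few calls at the shares over all tested genes, so 0 calls do not set them apart. DESeq2 called 1 gene of these lists higher in SCA1-High-FAPs, *Pik3ip1*, an inhibitor of phosphoinositide 3-kinase that was under the filter of edgeR. With no filter, or without SCA1-High-FAPs 1, edgeR called it too. Without SCA1-Low-FAPs 3, edgeR called *Grb10*, *Cblb* and *Inpp5k* higher in SCA1-High-FAPs. *Pik3ip1* and *Grb10* were named after their values were seen. In the main fit the largest changes of these lists were those of *Igf2r* (0.41), *Cblb* (-0.59) and *Inpp5k* (-1.03), on the log2 scale and not called. In that fit *Pik3r1* thus passed where its partners, the catalytic subunits among them, did not, though the differences between these genes were not tested.

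Among 18 tested genes of AKT activation and its targets, *Deptor*, an inhibitor bound to mTOR, was the one called. It ran from 49.9 to 88.9 CPM in SCA1-High-FAPs and from 7.39 to 27.3 CPM in SCA1-Low-FAPs (5.21-fold higher in SCA1-High-FAPs, log2 fold change -2.38 ± 0.36 SE, edgeR adjusted p = 0.00129). Of 14 tested feedback inhibitors, *Trib1*, a pseudokinase of the family that restrains AKT, was higher in SCA1-High-FAPs (log2 fold change -0.78, edgeR adjusted p = 0.0184). *Socs2*, a suppressor of cytokine signalling, rose in SCA1-Low-FAPs by 0.57 on the log2 scale (edgeR adjusted p = 0.0465). The *Socs2* call was kept in 1 of 8 fits that left out a library, the one without SCA1-Low-FAPs 3, with edgeR adjusted p up to 0.209, and *Trib1* was lost without SCA1-High-FAPs 3 or SCA1-Low-FAPs 1 or 2. *Enpp1*, an inhibitor of the receptor, had the largest value of this list, 1.45, but ranged from 0 to 12.5 CPM over the libraries and was not called (edgeR adjusted p = 0.379).

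Of 16 tested relatives and targets of FOXO, 1 was called in each direction. *Cdkn1a*, the cell cycle inhibitor p21, was at 319 to 393 CPM in SCA1-High-FAPs and 586 to 974 CPM in SCA1-Low-FAPs, which is a rise of 1.17 on the log2 scale (edgeR adjusted p = 0.000672). *Angptl4*, a secreted inhibitor of lipoprotein lipase, was higher in SCA1-High-FAPs (log2 fold change -1.17, edgeR adjusted p = 0.0447). The *Angptl4* call was kept in 2 of 8 fits that left out a library, those without SCA1-High-FAPs 2 or SCA1-Low-FAPs 3, while *Cdkn1a* was called in all 8. Over all tested genes the shares called were 4.36% and 3.32%.

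Of 15 tested glucose transport genes, *Tbc1d4*, the AKT substrate that holds back GLUT4 vesicles, was 2.5-fold higher in SCA1-High-FAPs (edgeR adjusted p = 0.034), and *Sort1*, sortilin, a protein of those vesicles, was 3.83-fold higher (edgeR adjusted p = 0.00339). The *Tbc1d4* call was kept in 1 of 8 fits that left out a library, the one without SCA1-High-FAPs 2, with edgeR adjusted p up to 0.1, whereas *Sort1* was called in all 8. Of 15 tested insulin-responsive genes of metabolism, 6 were called higher in SCA1-High-FAPs: *Pde3b*, the phosphodiesterase through which insulin restrains lipolysis (3.3-fold), *Lipe*, hormone-sensitive lipase (6.5-fold), *Lpl*, lipoprotein lipase (5.6-fold), *Gpd1*, which makes glycerol 3-phosphate (10.7-fold), *Scd1*, a fatty acid desaturase (2.21-fold), and *Ppp1r3c*, a glycogen-targeting phosphatase subunit (2.97-fold). *Hk1*, hexokinase 1, was 1.93-fold higher in SCA1-Low-FAPs (edgeR adjusted p = 0.0137). The shares called over all tested genes were 4.36% and 3.32%. The summed level of this metabolism list was 7358, 4057, 5677 and 2792 CPM in SCA1-High-FAPs 1 to 4. In SCA1-Low-FAPs 1 to 4 it was 1510, 1686, 1708 and 1390 CPM. Within each state this is the library order of the adipocyte marker sum given below. Whether these genes respond to insulin in these cells was not tested. *Pde3b*, *Lpl* and *Gpd1* were called in all 8 fits that left out a library. The *Lipe* call was kept in 3 of 8, those without SCA1-High-FAPs 1, 2 or 4. *Ppp1r3c* was lost without SCA1-High-FAPs 3 or SCA1-Low-FAPs 1 or 4, *Scd1* without SCA1-High-FAPs 3 or SCA1-Low-FAPs 1, and *Hk1* without SCA1-Low-FAPs 4. The 11 and 3 calls became 5 and 2 without SCA1-High-FAPs 3 or without SCA1-Low-FAPs 1, 7 and 2 without SCA1-Low-FAPs 2, and 8 and 1 without SCA1-Low-FAPs 4.

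**Figure D4:**
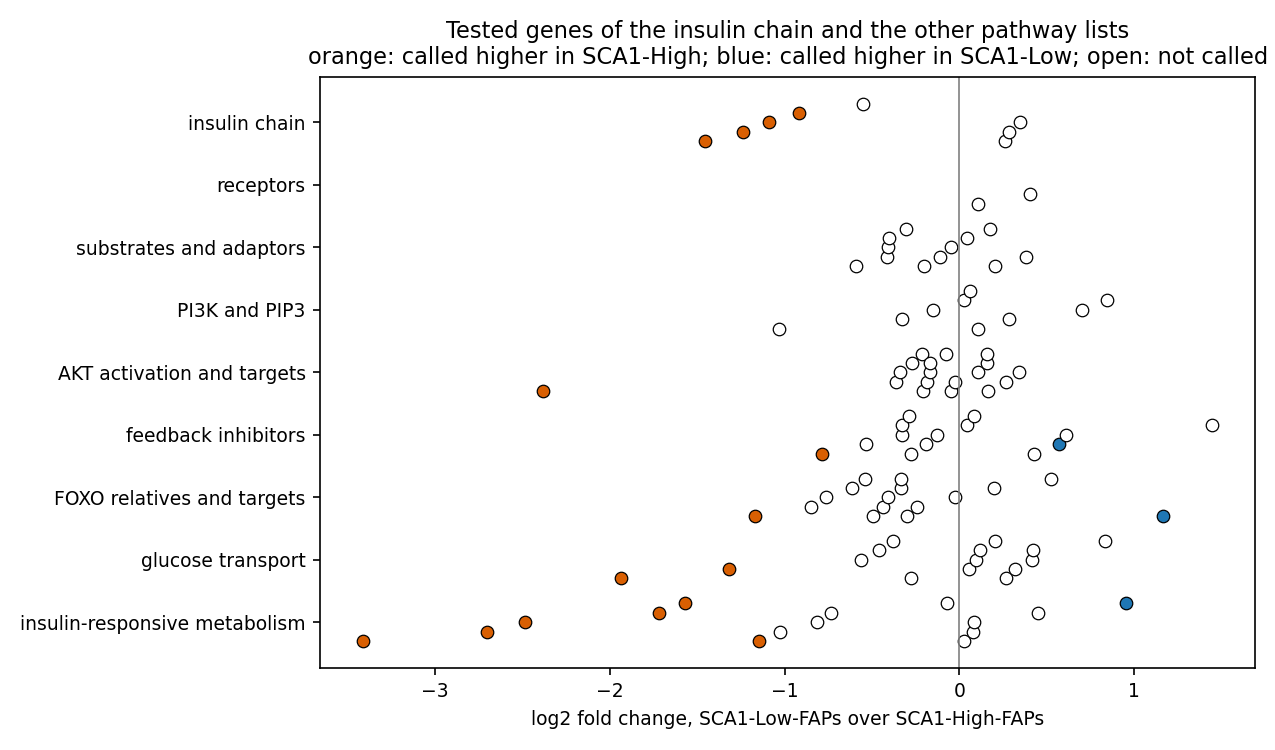
log2 fold change (SCA1-Low-FAPs over SCA1-High-FAPs) of each tested gene of the insulin chain and of the 8 pathway lists, offset vertically only to separate points. Filled points were called (orange, higher in SCA1-High-FAPs; blue, higher in SCA1-Low-FAPs): 4 in the chain, 0 among receptors, substrates and PI3K genes, and 7 of 15 among insulin-responsive genes of metabolism. Of all tested genes, 4.36% were called higher in SCA1-High-FAPs and 3.32% higher in SCA1-Low-FAPs.

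Between the cell states, adipocyte markers leaned the same way as *Insr*, *Irs1*, *Irs2* and *Pik3r1*. All 8 tested of 10 such markers had lower values in SCA1-Low-FAPs and 4 were called, among them *Adipoq* (adiponectin) and *Cebpa*, whereas *Lep* was at 0 in every library. Their summed level was 7336, 2732, 4487 and 1567 CPM in SCA1-High-FAPs 1 to 4 and 422, 554, 918 and 303 CPM in SCA1-Low-FAPs 1 to 4. SCA1-High-FAPs 4, the lowest of its group in these markers, was also the lowest in *Irs2* and *Pik3r1*. In *Insr* and *Irs1* SCA1-High-FAPs 2 was the lowest. SCA1-High-FAPs 1, the highest in the markers, was also the highest in *Insr* and *Irs1*. In *Irs2* and *Pik3r1* it lay below SCA1-High-FAPs 2 and SCA1-High-FAPs 3. In SCA1-Low-FAPs the 4 libraries had the same order in *Irs1* as in the marker sum, but in *Pik3r1* the library with the highest sum, SCA1-Low-FAPs 3, was the lowest. *Insr* and *Irs2* were highest in SCA1-Low-FAPs 1 and lowest in SCA1-Low-FAPs 2, which is not the order of the sum.

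The libraries nearest in marker sum from the 2 states were SCA1-High-FAPs 4 (1567 CPM) and SCA1-Low-FAPs 3 (918 CPM). They had *Insr* at 16.1 and 6.98 CPM, *Irs1* at 101 and 69.5 CPM, *Irs2* at 71.1 and 59.9 CPM and *Pik3r1* at 209 and 118 CPM. This sets a single library beside a single library, and their sums were not equal. Within SCA1-High-FAPs the highest marker sum was 4.68 times the lowest. For the genes the highest level was 1.62 times the lowest in *Insr*, 2.14 times in *Irs1*, 1.58 times in *Irs2* and 1.5 times in *Pik3r1*. The part of adipocyte-like cells in these differences was not tested.

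**Figure D5:**
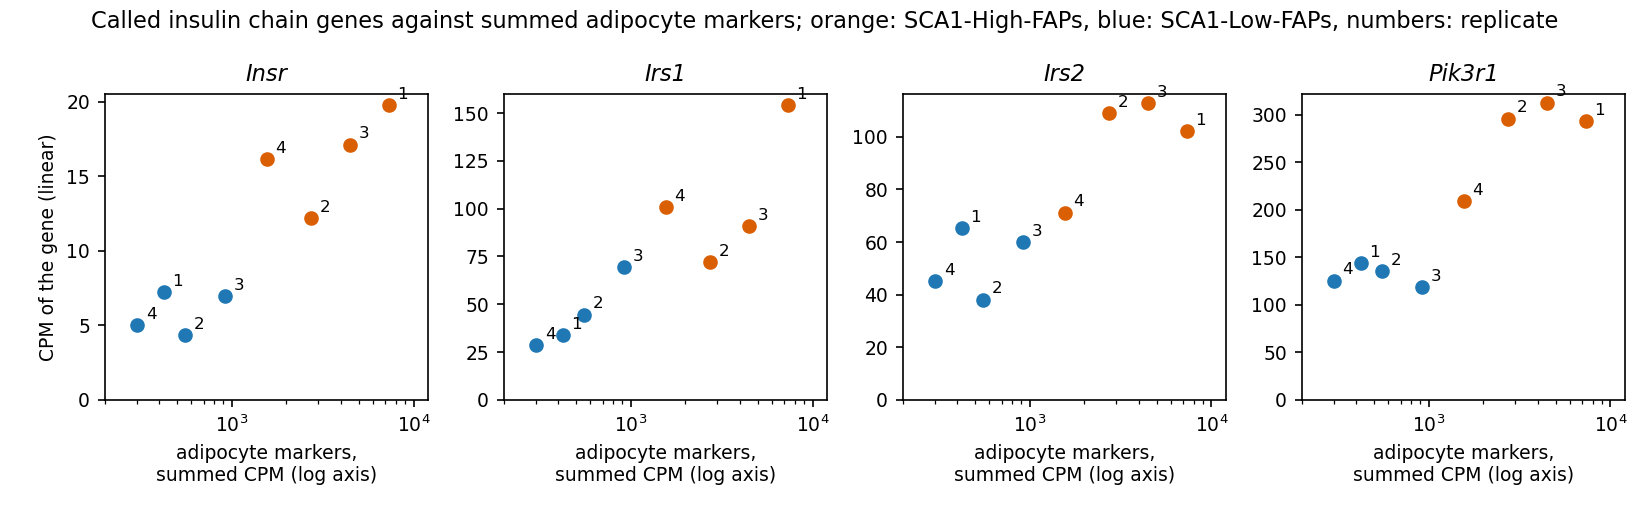
Level of Insr, Irs1, Irs2 and Pik3r1 (CPM, linear axis) against the summed CPM of 10 adipocyte markers (log axis) in the 8 libraries, orange for SCA1-High-FAPs and blue for SCA1-Low-FAPs, with replicate numbers. The marker sum spans 1567 to 7336 CPM in SCA1-High-FAPs and 303 to 918 CPM in SCA1-Low-FAPs, so the states do not overlap on this axis.

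Markers of cycling cells moved the other way: 7 of 7 were called higher in SCA1-Low-FAPs, and their sum was 564 to 784 CPM in SCA1-High-FAPs and 1103 to 1638 CPM in SCA1-Low-FAPs. These are mRNA levels after 5 days of culture. By cell counts and staining at a lower seeding density, the study found a shorter doubling time for SCA1-High-FAPs. Their share of cells with Ki-67 protein fell sooner, and in the animal more of them took up the DNA label EdU. Leucocyte markers summed to 25.3 to 48 CPM in SCA1-High-FAPs and 12.5 to 19.3 CPM in SCA1-Low-FAPs, with 2 of 6 at 0 in all libraries and *Lyz2*, a lysozyme of myeloid cells, called (log2 fold change -1.42). Endothelial markers summed to at most 7.39 CPM and myogenic markers to at most 9.8 CPM in any library, Schwann markers to 5.44 to 19 CPM, and tenocyte markers to 10 to 47.9 CPM. Pericyte and smooth muscle markers summed to 23.8 to 44.7 CPM in SCA1-High-FAPs and 27.3 to 67 CPM in SCA1-Low-FAPs, and the 3 tested of 5 were all called, *Cspg4* (2.40) and *Myh11* (1.85) higher in SCA1-Low-FAPs and *Notch3* (-1.54) higher in SCA1-High-FAPs, on the log2 scale. The part of these cells in the results was not tested.

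The genes whose pattern was most like that of the 4 called genes are given by Pearson's r of log2 CPM over the 8 libraries, as a description that includes the difference between the states. For *Insr* these included *Col5a3* (0.98), *Mettl7a1* (0.97), *Igf1* (0.97) and *Colec12* (0.97). For *Irs1* they were *Cdh11* (0.98), *Ndufa6* (0.98), *Ccn3* (0.98), *Idh1* (0.97) and *Rabgap1l* (0.97). For *Irs2* they were *Sdha* (0.99), *Aqp7* (0.97), *Gtf2f2* (0.97), *Prkag2* (0.97) and *Colec12* (0.96). For *Pik3r1* they were *Mgll* (0.98), *Idh3g* (0.98), *Mef2c* (0.97), *Pdzd2* (0.97) and *Lgals3bp* (0.97). *Igf1*, the growth factor that signals through *Igf1r*, was itself higher in SCA1-High-FAPs (log2 fold change -1.69, edgeR adjusted p = 0.00144).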

How the data were processed

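Per the labels and the study's methods, the authors sequenced 3′ mRNA libraries from 100 ng of RNA, trimmed the reads, aligned them with STAR to mm10 and counted them per gene with htseq-count. The deposited values are raw counts by the authors, with reads at several positions left out. Those reads made up 37.5 to 39.7% of all entries of the counting in SCA1-High-FAPs and 40.8 to 43.3% in SCA1-Low-FAPs, without overlap. What this does to the levels was not tested. Reads on no gene made up 13.3 to 16.4% of the reads on a gene, on no gene or on an ambiguous place, and were not used. Groups and numbers were taken from the sample titles. The study defines biological replicates as cells from different mice, and 4 mice are given for the 8 samples. Whether equal numbers mean the same mouse is not given in the sources used here.

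Symbols and positions came from GENCODE M21 (30934 of 31053 IDs matched) and promoters from RefSeq. Counts were filtered with filterByExpr (minimum 10, total 15), TMM-normalised and tested with the quasi-likelihood test of edgeR 4.0.16 in R 4.3.3, with Benjamini-Hochberg adjustment over 10181 genes. DESeq2 1.42.0 was an alternative. Ratios used counts plus 0.5 and an exact permutation test over 70 assignments. Scripts were tested on simulated data. The limit of 3 counts reflects counting error alone. Named were the 9 genes, *Igf1r*, *Slc2a1*, *Ly6a*, every called pathway gene, the largest change in each list and the 5 genes most like each called one. One gene under this rule is not reported here. The genes, lists and markers were chosen with earlier results of these data known.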

Additional observations from a re-analysis of the deposited data

Results flagged for a closer look

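Of 60 sets of 4 libraries screened for a single outlying sample, 4 held one, where chance gives about 1 in 20. *Slc2a4* stood at 3.87 CPM in SCA1-Low-FAPs 1, against 0 to 0.634 CPM in the other SCA1-Low libraries, and leaving this library out turned *Slc2a4* into a called gene. *Slc2a1* stood at 18 CPM in SCA1-High-FAPs 3, against 31.6 to 33 CPM in the others of its group. *Socs2* stood at 272 CPM in SCA1-Low-FAPs 4, against 175 to 188 CPM. *Angptl4* stood at 88.5 CPM in SCA1-High-FAPs 3, against 40.2 to 47.7 CPM.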

How the results depend on the processing

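Of the 9 genes 4 were called with DESeq2, with RLE factors, with no filter beyond 1 count, with no limit on the fold change and, an alternative chosen after seeing the data, with no scaling beyond library totals. When 10 counts were asked of each library, 3 were called, since *Insr* was no longer tested. At an adjusted p under 0.01, 1 was called (*Pik3r1*), and 6 pathway genes in place of 14. Under the other settings named, 14 to 17 pathway genes were called. Leaving out single libraries gave 2 to 4 of the 9 genes, with 2 without SCA1-Low-FAPs 2, and 7 to 18 pathway genes, with 18 without SCA1-Low-FAPs 3. It gave log2 ratio differences of -0.55 to -0.12 for *Irs1* to *Irs2* and -0.13 to 0.26 for *Akt1* to *Akt2*. They were 0.71 to 1.00 for *Foxo1* to *Foxo3* and -4.21 to -2.67 for *Slc2a4* to *Slc2a1*. The adjusted p of the exact permutation test was 0.114 or more in each, and no single ratio could have passed on its own. The *Slc2a1* log2 fold change then ran from -0.054 (without SCA1-High-FAPs 3) to 0.19. Among single genes and their settings, block fits included, 411 kept direction and side of the threshold, 61 lost the call, 4 gained it and 1, *Slc2a1*, turned its sign. *Socs2* lost its call with no scaling beyond library totals (adjusted p = 0.059) and *Lipe* with no filter (0.0622). The causes were not tested.

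Same-numbered samples did not deviate together (r of -0.0165, 0.00673, -0.0137 and -0.0502), and whether they share a mouse is not given. The highest r of SCA1-High-FAPs 1 to 4 with a SCA1-Low library of another number was 0.164, 0.131, 0.255 and 0.137. The main edgeR fit took no account of pairing, and a pairing by mouse under other numbers was not tested. With the replicate number as a block, edgeR called 3 of the 9 genes (*Insr* adjusted p = 0.0553) and 13 pathway genes (*Tbc1d4* and *Socs2* lost, adjusted p = 0.0566 and 0.0973), and DESeq2 called 4 (*Slc2a4* adjusted p = 0.0333, *Insr* 0.0602) and 14. Depth limits *Slc2a4* and *Insr* most, with 10 and 64 counts over the SCA1-Low libraries.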
